A study of Mus musculus with 6 samples.

Results

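A set of 10 genes that move, release or bind calcium in the secretory pathway were followed in primary hepatocytes of alcohol-fed mice. They were taken by gene symbol, as the 10 rows of the deposited table named Atp2a2, Itpr1, Itpr2, Itpr3, Stim1, Orai1, Calu, Rcn2, Sdf4 and Nucb2, of 25718 genes in the table. The endoplasmic reticulum (ER) is the main calcium store of the hepatocyte. The SERCA pump carries calcium from the cytosol into its lumen, IP3 receptors let it out again when hormones such as vasopressin, noradrenaline and angiotensin raise IP3, and STIM1 and ORAI1 bring calcium in across the plasma membrane when the store runs low. Luminal calcium is bound by chaperones and by EF-hand proteins of the CREC and nucleobindin families, and chaperones of the lumen need it to fold secretory proteins, of which the liver makes large amounts.

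The series asked how S100a16, which encodes an EF-hand calcium-binding protein of the S100 family, bears on lipid accumulation in the liver under alcohol. Hepatocytes were isolated by collagenase perfusion and a Percoll step from WT mice and from S100a16KO+/- mice, which had 1 floxed allele deleted over exons 2 to 3 with EIIa-Cre on a mainly C57BL/6 background, so that the deletion was not limited to hepatocytes. All mice of both genotypes were males of 8 to 10 weeks that had received 5 days of control liquid diet, then 10 days of a diet with 5% ethanol, and at the end 1 ethanol gavage at 5 g/kg with tissue taken 9 h later, so every value describes alcohol-fed animals and none an unexposed liver. In the labels the mutant libraries are written as S100A16 knockdown; heterozygous knockout is the genotype given in the methods and in the design text, homozygous loss being lethal. Each genotype had 3 libraries. The labels do not state that the libraries of a genotype came from separate animals, so the p values measure only the spread between these libraries.

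The estimated counts summed to between 67658095 and 71807834 per library, and 15957 genes passed the filter on low counts. S100a16 itself had 1001, 1056 and 1107 counts in WT and 433, 390 and 366 in S100a16KO+/- libraries, so the labels held for the targeted gene (log2 fold change -1.40, SE 0.11, adjusted p = 4.14e-07, edgeR). WT replicate 1 and S100a16KO+/- replicate 2 stood apart from the other 4 libraries on the second principal component, which held 12.8% of the variance, and had the largest shares of mitochondrial transcripts, 21.1% and 20.1% against 17.0% to 18.6%. The 8 hepatocyte markers summed to between 113443 and 125346 CPM (counts scaled by TMM to a common library size) in WT and between 109719 and 121587 CPM in S100a16KO+/- libraries, with Tat called higher and Ttr and Cyp2e1 called lower. Summed markers of sinusoidal endothelial cells were 235.9 to 248.9 CPM in WT and 341.2 to 348.7 CPM in S100a16KO+/- libraries, with 7 of 8 called higher and Lyve1 called lower. Stellate cell markers were 40.2 to 43.3 CPM against 71.0 to 77.9 CPM, with 4 of 8 called higher, and erythroid markers were 220.3 to 259.4 CPM against 28.8 to 32.3 CPM, with 5 of 6 called lower. Markers of macrophages and Kupffer cells were 100.05 to 122.0 CPM against 112.9 to 126.2 CPM, with Cd68 and Marco called higher. Cholangiocyte markers were 14.4 to 18.9 CPM against 12.3 to 15.0 CPM with Sox9 called lower and Cftr at or under 12 counts in all libraries, lymphocyte markers 8.26 to 10.6 CPM against 10.1 to 11.1 CPM, and neutrophil markers 3.62 to 5.81 CPM against 5.87 to 7.39 CPM with no marker called. These shifts ran between the same genotypes as every comparison that follows, and their part in the values was not tested. In bulk RNA, fewer cells of a type and less RNA per cell cannot be told apart.

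Before the values, promoter stretches are shown of the 4 members called higher that had a promoter window, since all of them held the same 6 letters; the remaining called member, Atp2a2, had no window. The window of 250 bases before to 50 bases after the RefSeq start was found for 8 of the 10 genes (build GRCm38.p6), and none for Atp2a2 and Itpr1. The letters ACGTGG, the core of the unfolded protein response element bound by ATF6 and XBP1, were searched on both strands; their reverse complement contains CCACG, the second part of the ER stress response element. They occurred in the windows of Calu, Itpr3, Nucb2 and Sdf4 and in none of those of Itpr2, Orai1, Rcn2 and Stim1. The capitals mark these letters, or their reverse complement in Nucb2, in the stretches that follow, all read on the plus strand, which is the strand of each of these genes.
Calu (chr6:29347953-29348012): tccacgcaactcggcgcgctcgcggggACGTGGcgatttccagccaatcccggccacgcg
Itpr3 (chr17:27057193-27057252): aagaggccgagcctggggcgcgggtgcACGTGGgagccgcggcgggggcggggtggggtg
Nucb2 (chr7:116504193-116504252): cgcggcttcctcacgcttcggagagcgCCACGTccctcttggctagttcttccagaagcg
Sdf4 (chr4:155992998-155993027): ttaggcctggtaACGTGGgaggagccccga
The capitals began 126 bases before the RefSeq start in Calu, 84 in Itpr3, 149 in Nucb2 and 143 in Sdf4. Sdf4 has 4 RefSeq windows, 1 of which held the letters, and in GENCODE M21 the site lies inside the annotated 5′ UTR of a longer Sdf4 transcript. ACGTGG occurred in 8.31% of the 32851 windows of this length and in 9.40% of 27025 genes with a window. Among tested genes with a window it occurred in 12.9% of 11118, in 17.0% of 1398 called higher, in 10.6% of 1374 called lower and in 12.6% of 8346 not called. The letters are rich in G and C, as were the promoters of the 8 genes (60.0% to 78.4% of the 250 bases before the start), and among the 6208 tested genes whose window had at least 60% G and C, called or not, the share was 15.2%. The full ER stress response element, CCAAT and CCACG with 9 bases between them, was in 0.119% of windows and in no window of the 8 genes. CCACG alone did not separate called from uncalled members. It was in windows of the uncalled Itpr2, Orai1 and Rcn2 as well as of the 4 called genes, and in 35.5% of genes with a window. ACGTGG is shown out of several motifs searched. A match is a description of letters, the search was made with the members' values known, and no test was run on it.

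Of the 10 genes, 5 were called higher in S100a16KO+/- hepatocytes at an adjusted p under 0.05 and 0 were called lower. Among all tested genes, 11.6% were called higher, 11.2% lower and 22.8% in either direction. The called genes were the pump Atp2a2, the IP3 receptor Itpr3 and the binding proteins Calu, Sdf4 and Nucb2. Without adjustment, 6 of the 10 had a p under 0.05 in the higher direction, Orai1 being the sixth, and 0 in the lower direction in edgeR. The share of all tested genes at that unadjusted threshold is not given, here or for the later counts at it. In the higher direction it is at least the 11.6% called after adjustment. DESeq2 called 5 of the members higher and 0 lower, with 3551 of 25701 genes called in all. The median log2 fold change was 0.25 over the 10 genes and 0.01 over all tested genes. In 6 of the 10 the CPM values of the genotypes did not overlap, which held for 37.9% of tested genes. The criterion of the study was an unadjusted p under 0.05 with a fold change of at least 2, which the paper used with DESeq2. Applied here to the edgeR fit, it called 1 of the 10, Nucb2, where 4.52% of tested genes met it. The pump and the binding proteins therefore held 4 of the 5 calls, and Itpr1, Itpr2, Stim1, Orai1 and Rcn2 were not called.

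**Figure D1:**
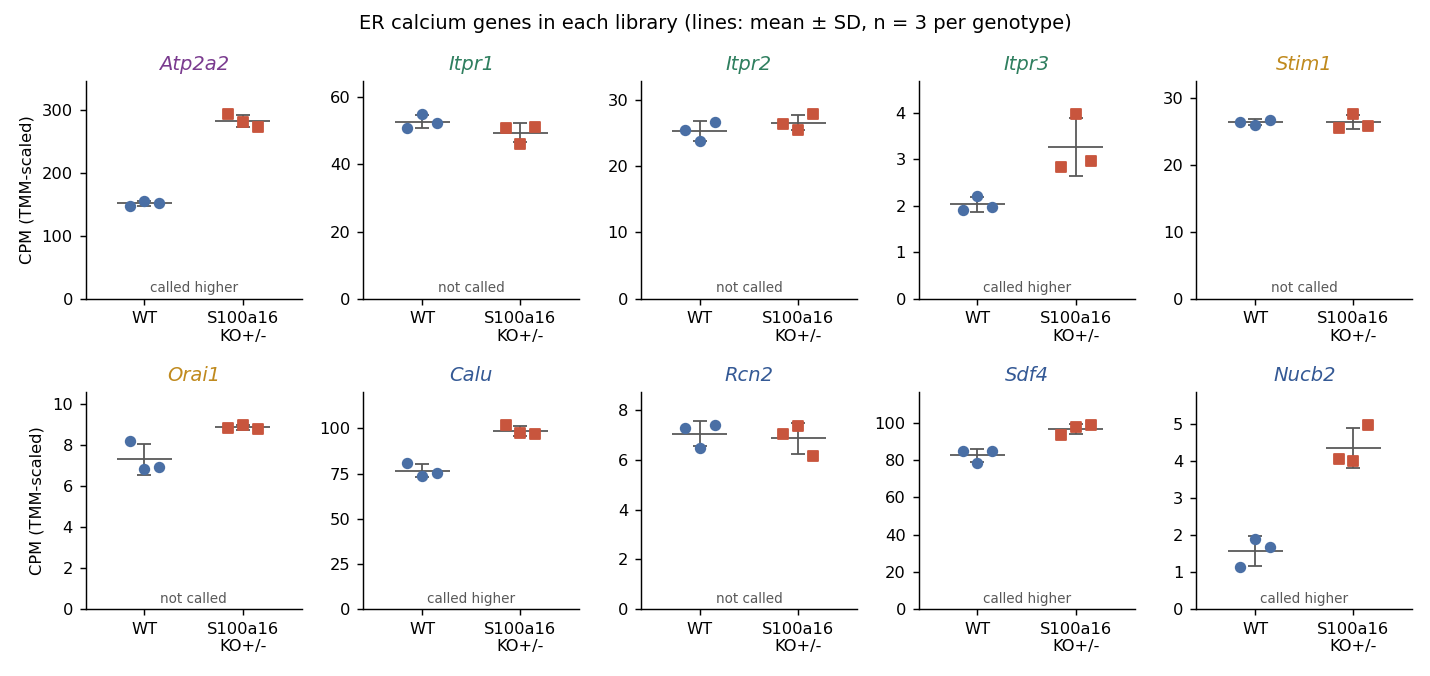
CPM of the 10 ER calcium genes in each library, 1 panel per gene with its own axis from 0, WT as circles and S100a16KO+/- as squares, with lines at the mean ± SD (n = 3). Atp2a2 sits between 146.9 and 156.0 CPM in WT and between 273.7 and 293.4 CPM in S100a16KO+/- libraries, whereas the points of Itpr1, Itpr2, Stim1 and Rcn2 overlap.

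Among the 10 genes, the largest difference in CPM was that of the calcium pump. Atp2a2 (ENSMUSG00000029467, chromosome 5, 122453513 to 122502174 on the minus strand, mm10 as the table gives it) encodes SERCA2, the pump that fills the ER store. It had 146.9, 156.0 and 151.6 CPM in WT and 293.4, 281.0 and 273.7 CPM in S100a16KO+/- libraries. The lowest S100a16KO+/- library was far above the highest WT library, and the spread within each genotype was small, with a coefficient of variation of 3.00% in WT and 3.51% in S100a16KO+/-. The fitted change was 1.87-fold (95% confidence interval 1.73 to 2.02), a log2 fold change of 0.90 (SE 0.05) with an adjusted p of 1.51e-08 in edgeR's quasi-likelihood test with Benjamini-Hochberg adjustment. 919 of the tested genes had a larger log2 fold change. In FPKM, which divides by transcript length, Atp2a2 rose from 22.3 ± 1.62 to 41.7 ± 2.47 (SD, n = 3).

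SERCA2 was nearly the whole of the SERCA transcript pool in these cells. Atp2a2 made up 99.0% ± 0.376 of the summed FPKM of Atp2a1, Atp2a2 and Atp2a3 in WT and 99.4% ± 0.131 in S100a16KO+/- libraries. Atp2a1, the pump of fast skeletal muscle, was at 0.0472 FPKM in WT and 0.0515 FPKM in S100a16KO+/-. Atp2a3, the pump of blood and endothelial cells, was at 0.182 and 0.188 FPKM (log2 fold change 0.01, SE 0.34). The range of the Atp2a2 log2 fold change over 16 other fits was 0.87 to 0.94, and it was called in each of them. Exons of Atp2a2 share 83 bases with Gm43361 on the opposite strand, which had a mean of 20.7 counts in WT and 33.3 in S100a16KO+/- beside 10033 to 20329 counts of Atp2a2.

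**Figure D2:**
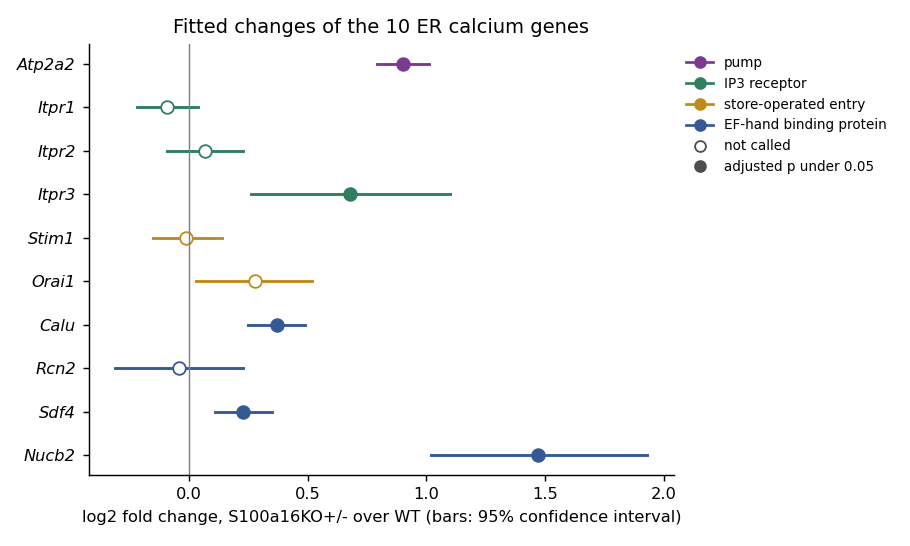
Log2 fold change of S100a16KO+/- over WT for each of the 10 genes with its 95% confidence interval, coloured by role, filled where the adjusted p was under 0.05. Nucb2 (1.47) and Atp2a2 (0.90) lie farthest to the right, and the intervals of Itpr1, Itpr2, Stim1 and Rcn2 include 0.

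Of the 3 release channel genes, the 2 with the higher levels were not called and the third, a low one, was. Itpr1 (ENSMUSG00000030102, chromosome 6, 108213096 to 108551109, plus strand) had the highest FPKM of the 3 IP3 receptor genes. Its values were 50.8, 54.9 and 52.3 CPM in WT and 50.9, 46.0 and 51.2 CPM in S100a16KO+/- libraries. The genotypes overlapped, and S100a16KO+/- replicate 2, one of the libraries that stood apart, was the lowest. The fitted fold was 0.938 (95% confidence interval 0.856 to 1.03, adjusted p = 0.329, edgeR), so a change as large as that of Atp2a2 lay outside its interval.

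Itpr2 (ENSMUSG00000030287, chromosome 6, 146108299 to 146502178, minus strand), the isoform regarded as the main one of rodent hepatocytes, was not called either. It had 25.4, 23.8 and 26.7 CPM in WT and 26.4, 25.5 and 27.8 CPM in S100a16KO+/- libraries, with 1 S100a16KO+/- library above the highest WT library. The fitted fold was 1.05 (95% confidence interval 0.942 to 1.17, adjusted p = 0.567, edgeR).

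Itpr3 (ENSMUSG00000042644, chromosome 17, 27057304 to 27122223, plus strand), the isoform known from bile duct cells, was the one IP3 receptor gene called, at a low level. It had 130, 155 and 135 estimated counts in WT and 197, 255 and 213 in S100a16KO+/- libraries, which at about 4 counts per fragment is 32 to 39 and 49 to 64 fragments. Each S100a16KO+/- library was above each WT library, with S100a16KO+/- replicate 2 the highest at 3.97 CPM. The fold was 1.61 (95% confidence interval 1.20 to 2.15) and the log2 fold change 0.68 (SE 0.20, adjusted p = 0.0215, edgeR). The call was lost without S100a16KO+/- replicate 2 (0.52, adjusted p = 0.106), without WT replicate 1 (0.64, 0.0718) and without WT replicate 3 (0.66, 0.0724), and the value was 0.47 (adjusted p = 0.206) without both libraries that stood apart. The summed cholangiocyte markers overlapped between the genotypes. Of the 5 such markers tested, Sox9 alone was called, as lower, whereas the middle value of their log2 fold changes was 0.17. Whether cholangiocytes among the cells had a part in the Itpr3 values was not tested. Itpr3os, an antisense gene that was not used here, shares 233 exonic bases with Itpr3, and whether the counting used strand is not given in the sources used here.

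Per transcript length, the Itpr2 share of the receptor pool overlapped between the genotypes, while that of Itpr1 was lower and that of Itpr3 higher in each S100a16KO+/- library than in each WT library. Itpr1 made up 59.0%, 61.9% and 58.5% of the summed IP3 receptor FPKM in WT and 57.0%, 53.7% and 55.9% in S100a16KO+/- libraries. Itpr2 made up 35.5% ± 2.08 in WT and 37.0% ± 0.502 in S100a16KO+/- libraries, a difference of 1.44 percentage points (p = 0.4, two-sided exact permutation test over the 20 assignments of libraries). With 3 libraries per genotype the smallest p this test can give is 0.1, so it could not have reached 0.05. Without WT replicate 2, the WT library with the lowest Itpr2 share, the difference was 0.247 percentage points. Itpr3 made up 4.48% to 4.99% in WT and 6.47% to 9.41% in S100a16KO+/- libraries, the highest share being that of replicate 2. The permutation test was run on the Itpr2 share alone, and the shares of Itpr1 and Itpr3 were not tested. The summed FPKM of the 3 receptor genes was 4.29 ± 0.270 in WT and 4.35 ± 0.356 in S100a16KO+/- libraries, while the FPKM of Atp2a2 over that sum was 5.15, 5.30 and 5.11 in WT and 9.91, 9.89 and 9.02 in S100a16KO+/- libraries. These sums and ratios are descriptions of the values above, and a ratio of transcripts is not one of proteins.

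**Figure D3:**
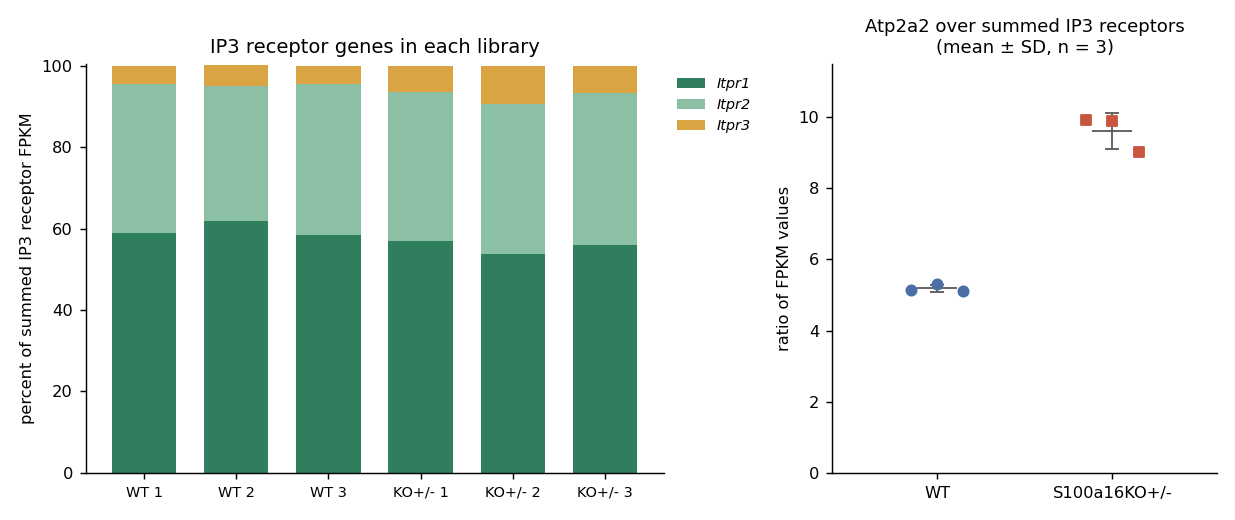
Left, the percent of summed IP3 receptor FPKM held by Itpr1, Itpr2 and Itpr3 in each library (stacked bars). Right, the ratio of Atp2a2 FPKM to summed IP3 receptor FPKM per library with the mean ± SD (n = 3), at 5.19 ± 0.101 in WT (circles) and 9.61 ± 0.508 in S100a16KO+/- (squares).

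Of the pair that refills the store from outside the cell, the sensor was not called and the channel had higher values that did not pass the adjusted test. Stim1 (ENSMUSG00000030987, chromosome 7, 102267806 to 102437319, plus strand), the sensor of luminal calcium, had 26.5, 26.0 and 26.8 CPM in WT and 25.6, 27.6 and 25.8 CPM in S100a16KO+/- libraries. The S100a16KO+/- values lay on both sides of the WT values. The fold was 0.996 with a 95% confidence interval of 0.901 to 1.10 (adjusted p = 0.971, edgeR), so a change of the size of that of Atp2a2 lay outside its interval.

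Orai1 (ENSMUSG00000049686, chromosome 5, 123015074 to 123030456, plus strand), the pore of the store-operated channel, had 8.19, 6.83 and 6.94 CPM in WT and 8.85, 8.99 and 8.77 CPM in S100a16KO+/- libraries. All S100a16KO+/- libraries were above all WT libraries, and WT replicate 1 was close to them. The fold was 1.21 (95% confidence interval 1.02 to 1.44, adjusted p = 0.103, edgeR) from 475 to 632 estimated counts. With limma on log2(FPKM + 1) over genes averaging at least 1 FPKM the adjusted p was 0.0450, and with a pseudocount of 0.1 it was 0.0456. In edgeR with a mean of at least 1 CPM it was 0.0715. The limma fits differed from the edgeR fit in values, test and filter together, and which of these moved the call was not tested. Orai1 over Stim1 in FPKM was 1.25 ± 0.126 in WT and 1.52 ± 0.0453 in S100a16KO+/- libraries.

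Of the 4 EF-hand binding proteins, 3 were called higher and Rcn2 was not. Calu (ENSMUSG00000029767, chromosome 6, 29348069 to 29377110, plus strand) encodes calumenin, a CREC protein of the ER known to bind SERCA2. It had 80.7, 73.8 and 75.2 CPM in WT and 101.9, 97.4 and 96.9 CPM in S100a16KO+/- libraries, with no overlap. The fold was 1.29 (95% confidence interval 1.19 to 1.40, log2 fold change 0.37, SE 0.06, adjusted p = 0.000248, edgeR). Calu shares 397 exonic bases with Opn1sw on the opposite strand, which had a mean of 1.33 counts in WT and 0 in S100a16KO+/- libraries.

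Sdf4 (ENSMUSG00000029076, chromosome 4, 155992872 to 156013610, plus strand) encodes Cab45, a CREC protein of the Golgi lumen that sorts secretory cargo. It had 84.8, 78.4 and 84.7 CPM in WT and 93.7, 97.8 and 98.9 CPM in S100a16KO+/- libraries. The genotypes did not overlap but stood close, and the fold of 1.17 (95% confidence interval 1.08 to 1.27, adjusted p = 0.00858, edgeR) was the smallest among the called members. Without WT replicate 2, the lowest library, the log2 fold change was 0.19 and the adjusted p 0.0569.

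Nucb2 (ENSMUSG00000030659, chromosome 7, 116504369 to 116540584, plus strand) encodes nucleobindin 2, an EF-hand protein of the secretory pathway and the precursor of nesfatin-1. It had 1.13, 1.9 and 1.67 CPM in WT and 4.06, 4.01 and 4.97 CPM in S100a16KO+/- libraries, the largest relative difference among the 10 genes. The lowest S100a16KO+/- library was above the highest WT library, and the coefficient of variation of 25.4% in WT was the largest among the members. These values rest on 77 to 134 estimated counts in WT and 258 to 358 in S100a16KO+/- libraries, or 19 to 34 and 64 to 90 fragments. The fold was 2.77 (95% confidence interval 2.02 to 3.81, log2 fold change 1.47, SE 0.21, adjusted p = 0.000148, edgeR), and 283 tested genes had a larger log2 fold change. On the log2(FPKM + 1) scale the difference was 0.74, since that scale understates changes of low genes.

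Rcn2 (ENSMUSG00000032320, chromosome 9, 56041845 to 56061882, plus strand) encodes reticulocalbin 2, a further CREC protein of the ER. It had 7.26, 6.46 and 7.39 CPM in WT and 7.04, 7.36 and 6.14 CPM in S100a16KO+/- libraries, and the genotypes overlapped. The fold was 0.972 with a 95% confidence interval of 0.807 to 1.17 (adjusted p = 0.865, edgeR), so changes of the size seen in Nucb2 and Calu lay outside it. The summed FPKM of Calu, Rcn2, Sdf4 and Nucb2 was 28.6 ± 0.593 in WT and 36.2 ± 1.9 in S100a16KO+/- libraries.

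Ordered by FPKM, the pump led in both genotypes, followed by the same binding proteins. In WT the order was Atp2a2, Calu (14.6 ± 0.0338), Sdf4 (12.1 ± 0.454), Orai1 (2.84 ± 0.160), Itpr1 (2.57 ± 0.207), Stim1 (2.27 ± 0.0970), Itpr2 (1.52 ± 0.0997), Rcn2 (1.32 ± 0.0804), Nucb2 (0.601 ± 0.175) and Itpr3 (0.200 ± 0.0222). Only the ranges of Orai1 and Itpr1 overlapped among WT neighbours. In S100a16KO+/- libraries Nucb2 stood at 1.67 ± 0.275 FPKM, past Itpr2 (1.61 ± 0.143) and Rcn2 (1.29 ± 0.0774), and its range overlapped that of Itpr2, as the range of Itpr1 (2.42 ± 0.258) did that of Stim1 (2.27 ± 0.0373). The mean FPKM of Atp2a2 was above that of 94.4% of tested genes, that of Itpr3 above 21.6%.

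The genes whose levels ran most like Atp2a2 over the 6 libraries were chosen by Pearson's correlation of log2(CPM + 1) among 2780 genes averaging at least 32 CPM. They included P4hb (r = 0.9996), which encodes protein disulfide isomerase, and Osbp (r = 0.9992), an oxysterol-binding protein of ER contact sites. The correlation is a description over libraries that fall into their genotypes, and 350 genes had an r over 0.95. The log2 fold changes were 0.55 (SE 0.04) for P4hb and 0.71 (SE 0.06) for Osbp, beside 0.90 for Atp2a2.

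The members stand within a larger set of calcium handling genes, of which 96 were in the table and 87 were tested. Of these, 21 were called higher and 8 lower, with a median log2 fold change of 0.05. Over all tested genes, 11.6% were called higher and 11.2% lower. The list was drawn up with earlier results of these data known. The luminal calcium-binding proteins other than the members, which include the chaperones that buffer calcium, had 11 of 13 tested genes called higher and 0 lower, with a median log2 fold change of 0.73; 12 were higher and 0 lower at an unadjusted p under 0.05, and DESeq2 called 11 higher and 0 lower. Hspa5, which encodes the chaperone GRP78, went from 72.6 ± 5.85 to 406.4 ± 46.0 FPKM (log2 fold change 2.47, SE 0.06, adjusted p = 1.48e-12, edgeR). Pdia4, a disulfide isomerase, went from 37.8 ± 0.831 to 128.4 ± 6.01 FPKM (1.76, SE 0.05), and Cgref1, an EF-hand protein, from 0.943 ± 0.0952 to 1.88 ± 0.244 FPKM (1.99-fold). Calr, Canx, Hsp90b1, P4hb, Rcn1, Rcn3, Nucb1 and Sel1l3 were the other called genes, and Casq1 and Efcab14 were not called. Genes were placed in this role by the list, and whether each product, such as that of Sel1l3, binds calcium was not tested. The study took up ER stress from these same libraries, so the direction of the ER chaperones among them is not independent of that choice. The paper also measured liver protein by western blot. It reported less GRP78 in alcohol-fed S100a16KO+/- than in alcohol-fed WT mice, the opposite direction to Hspa5 RNA here. Protein of whole liver and RNA of isolated hepatocytes are unlike measures, and the cause of the difference was not tested. The family members of the 10 genes thus included Rcn1 (log2 fold change 0.73, SE 0.12) and Rcn3 (1.05, SE 0.24) beside the uncalled Rcn2, and Nucb1 (0.38, SE 0.09) beside Nucb2. Leaving out WT replicate 3 left 10 called, Nucb1 being lost, and leaving out both libraries that stood apart left 11.

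**Figure D4:**
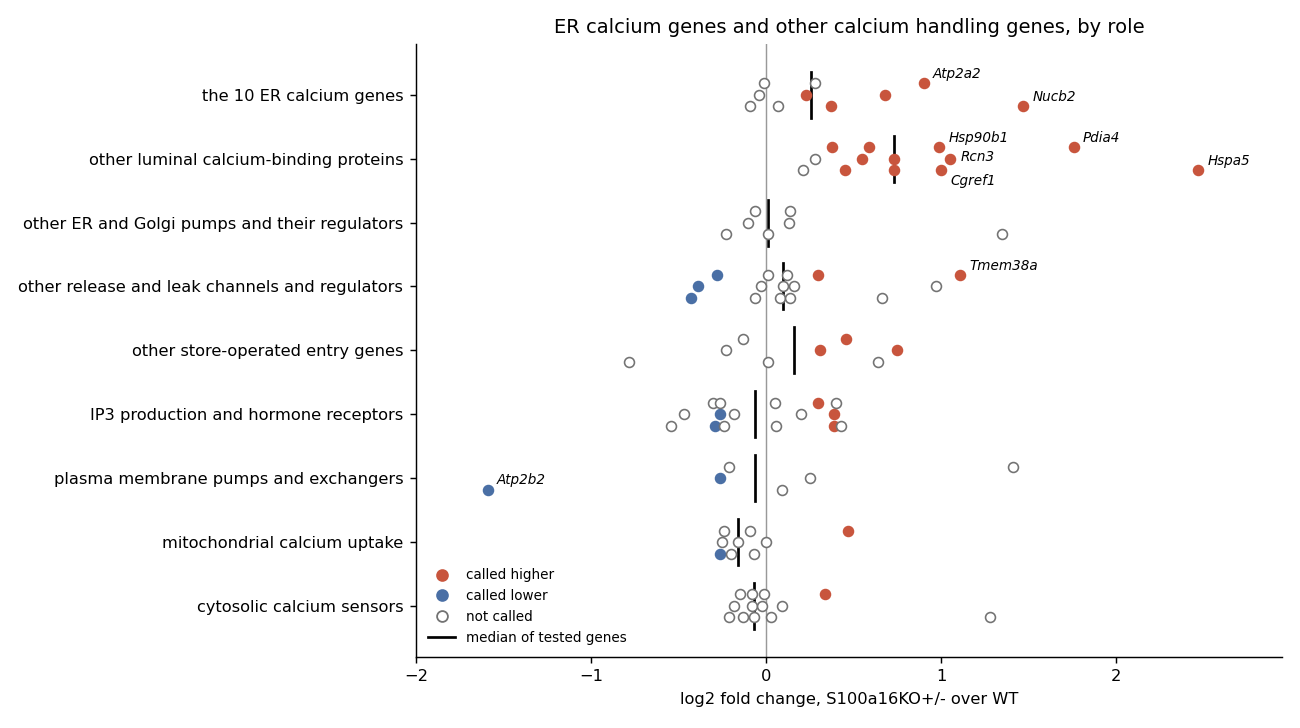
Log2 fold change of S100a16KO+/- over WT for the 10 ER calcium genes and the tested genes of 8 other calcium handling roles, 1 point per gene, filled where called and with the median of each role as a line (vertical offsets only separate the points). The genes listed as luminal calcium-binding proteins lie to the right, with a median of 0.73. The medians of the other 7 roles lie between -0.16 and 0.16.

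The calls in the other roles went in both directions, and 22.8% of all tested genes were called in either. Among the other ER and Golgi pumps and their regulators, 0 of 7 tested genes were called in either direction by edgeR, with 0 higher and 1 lower at an unadjusted p under 0.05, and DESeq2 called 0 higher and 1 lower. Among release and leak channels and the regulators of IP3 receptors, 2 of 15 were higher and 3 lower. Grina, an ER protein of the TMBIM family, was at 52.9 ± 2.49 and 65.5 ± 4.36 FPKM (log2 fold change 0.30, SE 0.08), while Itprid2, named for its interaction with IP3 receptors, fell from 6.22 ± 0.416 to 4.65 ± 0.455 FPKM (-0.43, SE 0.06). Erlin1, which takes part in the degradation of active IP3 receptors, fell from 9.18 ± 0.701 to 7.01 ± 0.410 FPKM (-0.39, SE 0.06). Tmem38a, a counter-ion channel, was called higher and Ahcyl1, an inhibitor of IP3 receptors, lower. The 3 ryanodine receptor genes were under the filter on low counts.

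Among the other store-operated entry genes, 3 of 8 were called higher and the other 5 were not called, among them Stim2 (-0.23 in log2, adjusted p = 0.0666 by edgeR). Selenok, a selenoprotein of the ER, rose from 17.6 ± 0.689 to 24.3 ± 1.37 FPKM (0.46, SE 0.05), and Saraf, which turns store-operated entry off, from 28.8 ± 2.02 to 35.8 ± 3.01 FPKM (0.31, SE 0.06). Cracr2b was the third. Of the genes for IP3 production and hormone receptors, 3 of 16 were higher and 2 lower. Plcb3, a phospholipase C, was at 1.45 ± 0.0397 and 1.92 ± 0.195 FPKM (0.39, SE 0.09), and Agtr1a, the angiotensin II receptor, at 14.5 ± 0.0794 and 17.9 ± 1.55 FPKM (0.30, SE 0.09). Plcg1 fell from 4.21 ± 0.211 to 3.46 ± 0.226 FPKM (-0.29, SE 0.07), Itpkb was the other gene called higher, and Adra1b, the alpha-1B adrenergic receptor, the other called lower.

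Of the genes listed as plasma membrane pumps and exchangers, which include channels, 2 of 6 were called lower. They were the channel Trpm7 (log2 fold change -0.26, SE 0.07) and the pump Atp2b2 (-1.59, SE 0.15). Atp2b2 was at 0.519 FPKM in WT and 0.171 FPKM in S100a16KO+/- libraries. Of the genes listed under mitochondrial calcium uptake, which include an exchanger, 1 of 9 was higher and 1 lower. Slc8b1, the mitochondrial sodium-calcium exchanger, rose from 12.8 ± 1.46 to 17.9 ± 2.99 FPKM (0.47, SE 0.08), and Vdac1, the channel of the outer membrane, fell from 49.6 ± 1.75 to 41.7 ± 2.90 FPKM (-0.26, SE 0.05).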

How the data were processed

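RNA of 6 libraries was sequenced after poly(A) selection with a strand-marking kit and unique molecular identifiers, and the submitters' processing notes name cutadapt 1.9, HISAT2 2.0.4, UMI-tools, StringTie 1.3.4d, DESeq2, edgeR and mm10. The authors deposited 1 table of estimated counts per gene, not scaled for library size, and FPKM values, which they scaled for transcript length and library size. The counts were whole numbers with an excess at 4, so that 1 fragment was worth about 4 counts, and 3 fragments, or 12 counts, were taken as the floor. This floor covers counting error only, whereas the confidence intervals of fold changes come from the fit and include the spread between libraries. Positions are those of the table, and for 8 of the 10 genes start and end equal those of GENCODE M21.

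Counts were compared with edgeR 4.0.16 in R 4.3.3 (TMM scaling, filterByExpr, robust quasi-likelihood fit, two-sided, no covariate), with Benjamini-Hochberg adjustment of p over all 15957 tested genes. A call is an adjusted p under 0.05. CPM values are TMM-scaled. The fit was tested on simulated data. The named genes were all 10 members, per other role up to 3 called genes with the largest absolute change and a mean of at least 1 FPKM, the 3 genes most correlated with Atp2a2 and S100a16; some of these genes are not reported here, and further genes are named to complete small counts and were chosen after their values were seen. The members and lists were chosen with earlier results of these data known. 4 listed calcium genes and 3 listed markers were not used here. Promoter windows are from RefSeq on GRCm38.p6, and motifs were searched after the values were known. The labels name no batch. Alternatives were a replicate block, leaving out each library, median-ratio and upper-quartile scaling, other filters, counts divided by 4, the criterion of the study, DESeq2 1.42.0 and limma 3.58.1 on log2(FPKM + 1) and log2(FPKM + 0.1), and, chosen after seeing the data, leaving out both libraries that stood apart.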

Additional observations from a re-analysis of the deposited data

How the results depend on the processing

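Of 158 recomputed log2 fold changes of the 10 genes, 143 kept their direction and side of the threshold, 5 lost the call (4 of Itpr3, 1 of Sdf4, given above), 2 gained it (Orai1 under limma) and 8 changed sign near 0. Itpr3 has no limma value, its mean being under 1 FPKM. The reversals were Rcn2 at 0.03 without S100a16KO+/- replicate 3 (range -0.10 to 0.03 over all settings), and Stim1 at 0.003 and 0.002 under limma with pseudocounts of 0.1 and 1, 0.004 with a mean of at least 1 CPM, 0.03 under upper-quartile scaling, and -0.04 to 0.01 over the libraries left out. The causes were not tested. Upper-quartile scaling moved the median of all genes to 0.043.

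Under the criterion of the study, applied to the edgeR fit, 1 member and 4 other calcium genes were called higher, 1 lower, and 721 genes in all. The paper used DESeq2, so 721 is not its own count. Under limma on FPKM, with 9054 genes tested, 3 other calcium genes were lower at either pseudocount, and 2208 (0.1) and 2228 (1) genes were called. Members called higher were 5 in limma too, with Orai1 in and Itpr3 not tested. Leaving out 1 library gave 4 to 5 members called higher, 0 lower, and 2734 to 3302 genes in all. With both libraries that stood apart left out, an alternative chosen after seeing the data, 4 members were called higher.

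The replicate numbers gave no sign of a pairing of the libraries, as deviations of same-numbered libraries correlated at -0.0472, -0.0237 and 0.0518. Low correlations do not exclude a pairing. With the replicate block, 5 members were called higher and 3082 genes in all, and the Itpr2 share differed by 1.44 percentage points. Depth limits Itpr3 and Nucb2, which rest on under 100 fragments per library.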
